A study of Mus musculus with 35 samples.

Results

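Ntrk3, Ngfr, Bdnf, S100b, Clstn3 and Sox10 are genes of nerve growth signalling and of Schwann cells, and their RNA was followed in mouse interscapular brown adipose tissue (iBAT) during cold exposure. They are 6 of the 55421 genes in the count table. They were chosen by their link to sympathetic innervation and selected on a measured value as well, since Ntrk3 is much lower after 6 hours of cold than in controls. The values after 6 hours are therefore given as a description, with no test. All mice were male C57BL/6J animals aged 9 to 10 weeks. Controls (n = 5) stayed at room temperature, 24 °C, and the other mice (n = 5 for each duration) spent 6 hours, 1, 2, 3, 4 or 5 days at 6 °C. The cold-exposed mice were also caged singly and without nesting material, so temperature and housing cannot be told apart. Each of the 35 libraries came from a pad of a different mouse.

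Sympathetic fibres release noradrenaline onto brown adipocytes and drive heat production, and their density depends on growth signals from the tissue. Neurotrophins are secreted proteins that act through the Trk receptor kinases and through the shared receptor p75, which Ngfr encodes. BDNF binds TrkB (Ntrk2) and neurotrophin-3 binds TrkC (Ntrk3). Schwann cells wrap the axons, depend on the transcription factor SOX10 and contain the calcium-binding protein S100B. S100B can also be secreted and act on neurites. Clstn3 encodes calsyntenin-3, a membrane protein first known from synapses, and brown adipocytes make a shorter form from the end of the gene that takes part in the secretion of S100B.

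The QuantSeq kit reads the 3′ end of polyadenylated RNA, so that a transcript gives about the same number of reads whatever its length. Levels are given in CPM, reads scaled by TMM to a common library total. Libraries held between 3846016 and 6047247 counts, and a single read was worth 0.165 to 0.26 CPM. Mitochondrial genes took 33.6% to 46.2% of the counts and Gm42418 took 7.81% to 16.3%. Skeletal muscle markers (9 genes) varied widely between mice, from 2.31 to 1171 summed CPM. Their median was 403 in controls and 227 after 5 days, when 5 of the 9 were called lower, beside 18.6% of all genes. Whether muscle in the dissected pads touches the levels below was not tested. In bulk tissue, fewer cells of a type and less RNA per cell cannot be told apart.

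**Figure D1:**
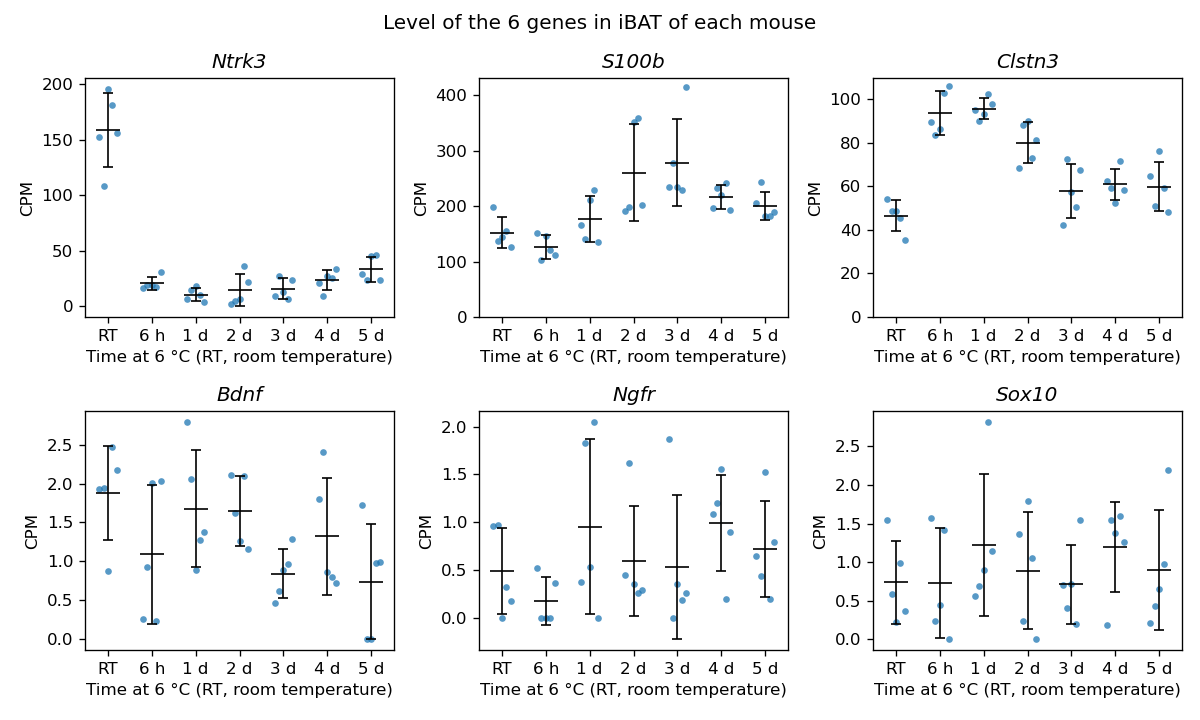
CPM of the 6 genes (y axes) in each of 5 mice per group (points), with the mean (long bar) and SD (error bars), at room temperature (RT) and after each time at 6 °C. Ntrk3 is above 108 CPM in every control and below 46 in every cold-exposed mouse, S100b is highest at 2 and 3 days, Clstn3 at 6 hours and 1 day, and the 3 genes of the lower row stay below 3 CPM.

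The levels of the 6 genes differed widely. Ntrk3, S100b and Clstn3 had enough reads for the count test in every comparison, Bdnf only after 4 days, and Ngfr and Sox10 in none. Ngfr had 109 reads in all 35 libraries together, Sox10 had 157 and Bdnf 232. S100b had 34450 reads, Clstn3 11944 and Ntrk3 7010.

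Ntrk3 encodes TrkC, the receptor for neurotrophin-3. The gene lies on the minus strand of chromosome 7 (GRCm38, chr7:78175959-78738012) and has 20 annotated transcripts. Its 6 protein-coding transcripts end at 6 different places, 401577 bases apart at most. Counts per gene do not separate full-length receptors from forms without the kinase. The controls had 153, 108, 196, 181 and 156 CPM. After 6 hours the mice had 16.5, 19.2, 18.5, 17.2 and 30.2 CPM, so no cold-exposed mouse reached the lowest control. The mean was 159 ± 33.4 CPM (SD, n = 5) in controls and 20.3 ± 5.62 (n = 5) after 6 hours, which is 12.8% of the control mean.

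Ntrk3 stayed low through all 5 days. After 1 day the values were 5.95, 14.2, 17.9, 9.46 and 3.67 CPM, and after 2 days they were 1.96, 4.41, 6.65, 35.7 and 21.6 CPM. The second day was the most uneven, with 3 mice below 7 CPM and 2 above 21. After 3 days the mice had 8.87, 27.4, 12.8, 6.16 and 23.1 CPM, after 4 days 20.8, 9.30, 27.3, 24.8 and 33.7 CPM, and after 5 days 28.8, 23.4, 45.3, 45.6 and 23.5 CPM. All 25 of these mice lay below every control. The group mean was lowest after 1 day, at 6.44% of controls, and reached 21.0% after 5 days. On the log2 scale the difference from controls was -3.94 ± 0.29 (SE) on day 1, -3.60 ± 0.49 on day 2, -3.34 ± 0.29 on day 3, -2.77 ± 0.24 on day 4 and -2.26 ± 0.19 on day 5. These differences share their control mice with the comparison that chose the gene, and no p-value is given for them.

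Within the cold-exposed mice, Ntrk3 rose again. This was tested without the control and 6-hour mice, as a linear change over the 25 mice of 1 to 5 days. Ntrk3 increased by 0.42 ± 0.11 (SE) per day on the log2 scale (edgeR's quasi-likelihood test, adjusted p = 0.0047). Of the 11675 genes tested, 10.7% were called higher and 10.5% lower in this comparison. A direct comparison of 5 days with 1 day gave a log2 difference of 1.68 ± 0.30 (adjusted p = 9.8e-04). When the 5 durations were entered as categories, a choice made after the data had been seen, the adjusted p for any difference was 0.063 in the same edgeR test. In the order of group means, only controls were separate from the next group, while the ranges of neighbouring cold durations overlapped.

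Ntrk2, which encodes TrkB, had 65.0 ± 11.6 CPM in controls, 122 ± 18.0 after 6 hours and 134 ± 5.98 after 1 day (n = 5 each). The highest control had 80.4 CPM and the lowest mouse of the 1-day group had 125 CPM, so these groups did not overlap. Ntrk2 was called higher after 1 day (log2 change 1.04 ± 0.12, adjusted p = 3.9e-06), 2 days (0.54 ± 0.16, adjusted p = 0.017), 4 days (0.37 ± 0.13, adjusted p = 0.039) and 5 days (0.47 ± 0.12, adjusted p = 0.0053) by edgeR's quasi-likelihood test. With library size as the only scaling, the call after 1 day held (adjusted p = 2.9e-05), and those after 2, 4 and 5 days had adjusted p of 0.085, 0.17 and 0.11. Between 1 and 5 days Ntrk2 fell by 0.14 ± 0.04 per day on the log2 scale (adjusted p = 0.0092). Controls therefore had more reads for Ntrk3 than for Ntrk2, and every cold-exposed group had more for Ntrk2.

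**Figure D2:**
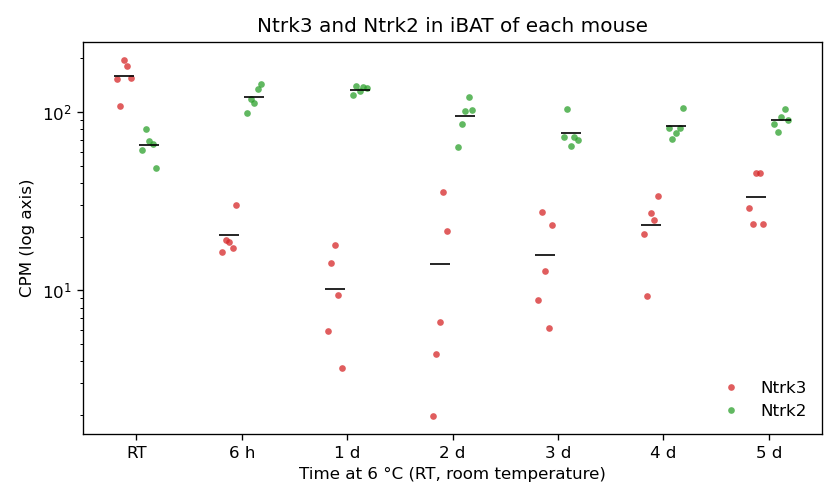
CPM on a log axis of Ntrk3 (red) and Ntrk2 (green) in each mouse (points, 5 per group), with group means as black bars, at room temperature (RT) and after each time at 6 °C. The means of Ntrk3 and Ntrk2 are 159 and 65.0 CPM in controls and 10.2 and 134 CPM after 1 day.

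Ngfr encodes p75, which binds all neurotrophins (chr11:95568818-95587735, minus strand). It had 5, 5, 0, 2 and 1 reads in the controls and at most 9 reads in any mouse. The mean was 0.489 ± 0.45 CPM in controls, 0.179 after 6 hours and between 0.534 and 0.989 CPM in the later groups. The ranges overlapped controls at every duration. Exact two-sided permutation tests over the 252 splits of 5 against 5 gave p of 0.16 to 0.94 for 1 to 5 days. A difference was not detectable at this depth.

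Bdnf encodes a ligand of TrkB and p75 (chr2:109674700-109727007, plus strand). Its exons overlap those of the antisense gene Gm45346, and the strand setting of the counting was not given in the sources used here, so reads of these genes may not be separated. Controls had 10, 10, 4, 15 and 12 reads, or 1.88 ± 0.60 CPM. After 3 days the mice had 2, 3, 5, 5 and 5 reads (0.844 ± 0.32 CPM), and after 5 days they had 8, 0, 0, 5 and 5 reads (0.739 ± 0.74 CPM). A library with 0 reads could still hold up to 3 by counting error. The difference in mean log2 CPM was -0.86 after 3 days and -1.25 after 5 days, each with an exact permutation p of 0.032. These were the 2 lowest of 14 such unadjusted tests over Ngfr, Bdnf and Sox10, and the smallest p that the splits allow is 0.0079. After 4 days Bdnf entered the count test, with a log2 change of -0.50 ± 0.41 (edgeR, adjusted p = 0.36). All ranges overlapped those of controls.

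The neurotrophin list holds 12 genes, 3 of them among the 6 chosen. Ntf3 and Ntf5, which encode further ligands, were near the limit of detection, with a mean of 1.25 CPM for Ntf3 and 0.063 for Ntf5 over the 35 libraries. Without the members, 4 genes of the list could be tested after 1 day, of which Ntrk2 was called higher and Sort1 and Maged1 lower. Over all 10658 genes tested, 18.9% were called higher and 17.8% lower after 1 day. Sort1 encodes sortilin, a partner of p75 in binding the precursors of neurotrophins. It fell by 0.48 ± 0.11 on the log2 scale after 1 day (edgeR adjusted p = 0.0035), from 77.6 ± 3.97 to 55.8 ± 8.48 CPM. Sort1 was also called lower after 2 and 4 days. Maged1, whose protein binds p75 inside the cell, fell by 0.74 ± 0.14 after 1 day and by 0.59 ± 0.14 after 5 days (adjusted p = 4.8e-04 and 0.0021). Sorcs2, another p75 partner, had 8.40 ± 2.90 CPM in controls, 1.08 ± 0.73 after 6 hours, 2.78 ± 1.89 after 2 days and 7.67 ± 4.31 after 5 days. It was called lower after 2 days (log2 change -1.71 ± 0.41, edgeR adjusted p = 0.0054), and after 5 days the change was -0.12 ± 0.31 (adjusted p = 0.79).

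Clstn3 lies on the minus strand of chromosome 6 (chr6:124430759-124464794). Its 3 protein-coding transcripts in the annotation have 2 different ends, and the shorter adipocyte form shares the end of the gene with calsyntenin-3, so that the counts cannot separate them. The controls had 54.2, 48.5, 48.8, 45.4 and 35.2 CPM. After 6 hours the mice had 89.6, 83.4, 86.1, 103 and 106 CPM, and after 1 day they had 94.8, 89.7, 93.1, 103 and 97.5 CPM. After 2 days the values were 68.4, 87.9, 89.9, 72.7 and 81.0 CPM. At these 3 durations every mouse was above every control. Of all genes tested, 21.6% were called higher after 6 hours, 18.9% after 1 day and 16.4% after 2 days. The share of all genes that separate from controls in this way is not given here, for Clstn3 or the other genes. The mean of Clstn3 rose from 46.4 ± 7.04 CPM in controls to 95.5 ± 4.85 after 1 day (log2 change 1.04 ± 0.11, edgeR adjusted p = 2.2e-06). It was 80.0 ± 9.32 after 2 days (0.78 ± 0.12, adjusted p = 2.0e-04). At 6 hours the mean was 93.5 ± 10.2 CPM, a log2 difference of 0.99 ± 0.12. These comparisons, like those of S100b, share the same 5 control mice.

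Clstn3 then moved back towards controls. After 3 days the mice had 42.0, 72.3, 57.1, 50.6 and 67.3 CPM, after 4 days 62.5, 59.4, 52.5, 71.5 and 58.2 CPM, and after 5 days 64.9, 50.8, 76.2, 59.1 and 48.2 CPM. These groups overlapped controls. The log2 change from controls was 0.33 ± 0.15 after 3 days (edgeR adjusted p = 0.093), 0.40 ± 0.12 after 4 days (adjusted p = 0.013) and 0.36 ± 0.13 after 5 days (adjusted p = 0.041). With library size as the only scaling, the later calls were lost (adjusted p = 0.098 after 4 days and 0.44 after 5 days). The call after 5 days was also lost in 7 of the 10 fits that left out a mouse, where adjusted p ran from 0.019 to 0.13. Over 1 to 5 days Clstn3 fell by 0.18 ± 0.03 per day on the log2 scale (adjusted p = 1.9e-04). The other calsyntenins were lower in level. Clstn1 had 12.4 ± 1.54 CPM in controls and was called higher only after 3 days (0.54 ± 0.15, adjusted p = 0.012, or 0.087 with library size alone), and Clstn2 averaged below 1 CPM in every group.

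S100b lies on the plus strand of chromosome 10 (chr10:76253853-76261159), with a single annotated transcript. The controls had 198, 137, 145, 156 and 126 CPM. After 6 hours the mice had 152, 103, 147, 121 and 112 CPM, which overlapped controls. After 1 day the values were 167, 141, 212, 228 and 136 CPM (mean 177 ± 41.6), and the log2 change was 0.22 ± 0.16 (edgeR adjusted p = 0.30). After 2 days they were 191, 198, 351, 359 and 203 CPM, with 2 mice far above the other 3. After 3 days all 5 mice, at 235, 277, 234, 230 and 415 CPM, were above every control. Of all genes tested, 18.3% were called higher at that duration.

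S100b was thus highest in the middle of the time course. The mean was 152 ± 27.9 CPM in controls, 260.5 ± 86.7 on day 2, 278 ± 78.6 on day 3, 217 ± 21.8 on day 4 and 201 ± 25.4 on day 5. The log2 change from controls was 0.77 ± 0.19 after 2 days (edgeR adjusted p = 0.0062), 0.88 ± 0.16 after 3 days (adjusted p = 5.7e-04), 0.52 ± 0.12 after 4 days (adjusted p = 0.0024) and 0.39 ± 0.12 after 5 days (adjusted p = 0.017). With library size alone S100b was no longer called after 5 days (0.17, adjusted p = 0.30), nor was it in a single fit of all 7 groups (0.40, adjusted p = 0.075). No linear change between 1 and 5 days was found (0.0041 ± 0.053 per day, adjusted p = 0.97), and the test of any difference among these 5 durations gave an adjusted p of 0.046. Of the macrophage markers (8 genes), 7 were tested after 2 days and 3 of these were called higher. After 3 days 5 of 8 were called higher, and after 4 and 5 days 4 of 8 each. Between 16.4% and 20.2% of all genes were called higher at these durations. Lgals3, Gpnmb and Cd68 were among the markers called each time. The median log2 change of the markers tested was 0.042 after 2 days and 0.62 after 3 days. Their summed level had a median of 70.7 CPM in controls (57.1 to 132), 105.5 after 2 days (74.0 to 439.8) and 302 after 3 days (114 to 468). Summed stromal markers (12 genes) had a median of 135 CPM in controls and 256 after 3 days. The part of macrophages, stromal cells, Schwann cells or brown adipocytes in the S100b result was not tested.

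**Figure D3:**
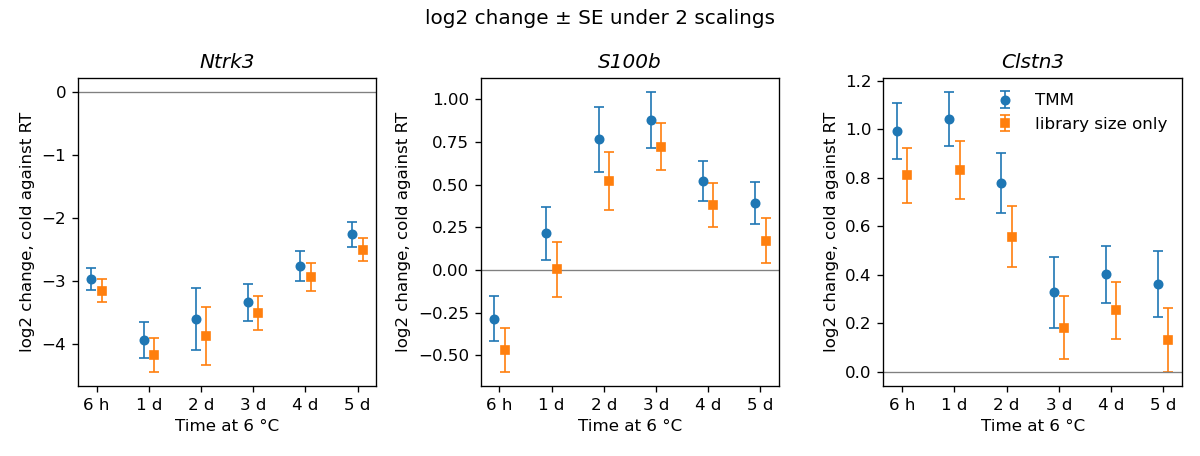
log2 change ± SE from room temperature (y axes) of Ntrk3, S100b and Clstn3 after each time at 6 °C, 5 mice per group, with TMM scaling (blue) and with library size alone (orange). Ntrk3 is between -2.26 and -3.94 with TMM, S100b peaks at 3 days (0.88), Clstn3 peaks at 1 day (1.04), and every value is lower with library size alone.

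The windows before the transcription start sites are shown for S100b and Clstn3, which rose at different times, and for the Bdnf start that holds the motif searched. Each is the 250 bases before a start in RefSeq (GRCm38.p6), read 5′ to 3′ on the strand of the gene. TGACG, the core of the cAMP response element, was searched on both strands and is in capitals where found (its other strand reads CGTCA). Of 32851 RefSeq windows of this length, 17.8% hold TGACG and 1.55% hold the whole palindrome TGACGTCA. The Bdnf window has the motif 35 bases before the start, and neither it nor the other 6 Bdnf windows hold the palindrome. No match was found for S100b, for either of the 2 Clstn3 windows or for Ngfr. Both Clstn3 windows lie by the start of the gene, and the start of the shorter adipocyte form was not searched.
S100b, chr10:76253586-76253835, plus strand: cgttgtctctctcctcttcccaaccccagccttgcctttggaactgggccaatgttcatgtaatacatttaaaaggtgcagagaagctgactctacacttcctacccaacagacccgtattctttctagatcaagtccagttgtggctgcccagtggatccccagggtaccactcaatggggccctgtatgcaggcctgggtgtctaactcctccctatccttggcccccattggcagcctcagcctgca
Clstn3, chr6:124464785-124465034, minus strand: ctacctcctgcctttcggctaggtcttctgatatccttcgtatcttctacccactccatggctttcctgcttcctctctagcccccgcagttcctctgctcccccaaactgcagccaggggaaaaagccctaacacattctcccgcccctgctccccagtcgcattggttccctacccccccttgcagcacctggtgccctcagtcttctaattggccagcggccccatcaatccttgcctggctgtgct
Bdnf, chr2:109692186-109692435, plus strand: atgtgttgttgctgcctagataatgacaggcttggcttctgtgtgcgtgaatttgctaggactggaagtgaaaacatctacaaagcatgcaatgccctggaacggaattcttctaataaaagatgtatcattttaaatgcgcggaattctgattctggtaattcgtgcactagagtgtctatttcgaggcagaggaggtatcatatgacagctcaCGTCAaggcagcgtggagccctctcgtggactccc

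Of the 6 genes, 3 could be tested in each comparison, and 4 after 4 days. Ntrk3 is left out of the calls against controls, since its control values chose it, and the 6-hour comparison is left out for all 6 genes. Over all genes tested, 21.6% were called higher and 21.0% lower after 6 hours. Clstn3 alone was called higher after 1 day (18.9% of all genes higher and 17.8% lower). Clstn3 and S100b were called higher after 2 days, when 16.4% of all genes were called higher and 14.7% lower. S100b alone was called higher after 3 days (18.3% of all genes higher and 15.5% lower). Both were called higher after 4 days (20% higher and 18.0% lower) and after 5 days (20.2% higher and 18.6% lower). With library size alone, the share of calls that were higher changed from between 50.6% and 54.2% to between 25.3% and 35.8% over these 6 comparisons, and the median log2 change of all genes moved by -0.14 to -0.23. Ntrk3 was lower under each of the scalings tried, a direction that its choice by the control values largely fixed in advance.

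Sox10 is the transcription factor that marks the Schwann cell lineage (chr15:79154908-79165240, minus strand). The controls had 8, 3, 1, 6 and 2 reads and the most in any mouse was 11. The mean was 0.739 ± 0.54 CPM in controls and between 0.711 and 1.22 CPM in the cold-exposed groups. Every range overlapped controls, and exact permutation p for 1 to 5 days lay between 0.30 and 0.98. No difference was detectable at this depth.

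The Schwann cell list of 26 genes was expressed at a low level. Gfap had no read in any library and only 9 of the genes averaged 10 reads or more. S100b averaged 202 CPM over all libraries, against 30.3 for Pmp22 and 14.1 for Mbp, both myelin genes. Without the members, the number of genes of the list that could be tested was 9 after 2, 3 and 5 days, 10 after 4 days and 11 after 1 day. The genes called were Scn7a after 1 day, Scn7a and Mbp after 2 and 3 days, Scn7a and Erbb3 after 4 days, and Scn7a and Ncam1 after 5 days, all of them lower. Of all genes tested, between 14.7% and 18.6% were called lower at these durations. The median log2 change of the genes of the list tested was -0.47 on day 2, 0.017 on day 3 and -0.26 on day 5. Over all genes tested it was -0.017, -0.0075 and -0.017.

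Scn7a, a sodium channel gene of non-myelinating Schwann cells, was the gene that fell at each duration from 1 to 5 days. The mean was 23.5 ± 2.6 CPM in controls, 11.3 ± 0.73 on day 1, 9.59 ± 3.08 on day 2 and 11.3 ± 2.72 on day 5. The lowest control had 20.2 CPM, above the highest mouse of the 5-day group at 15.3 CPM. The log2 change was -1.06 ± 0.13 after 1 day, -1.34 ± 0.21 after 2 days and -1.06 ± 0.16 after 5 days (edgeR adjusted p = 7.0e-06, 1.6e-04 and 4.9e-05). Mbp, which encodes myelin basic protein, fell by 0.72 ± 0.24 after 2 days and by 0.78 ± 0.19 after 3 days (adjusted p = 0.034 and 0.0044), and after 5 days its change was -0.26 ± 0.15 (adjusted p = 0.18, or -0.49 with an adjusted p of 0.015 with library size alone). Erbb3, the neuregulin receptor of Schwann cells, was called lower after 4 days (-1.26 ± 0.43, adjusted p = 0.031), and Ncam1, a neural adhesion molecule, after 5 days (-1.19 ± 0.34, adjusted p = 0.010).

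**Figure D4:**
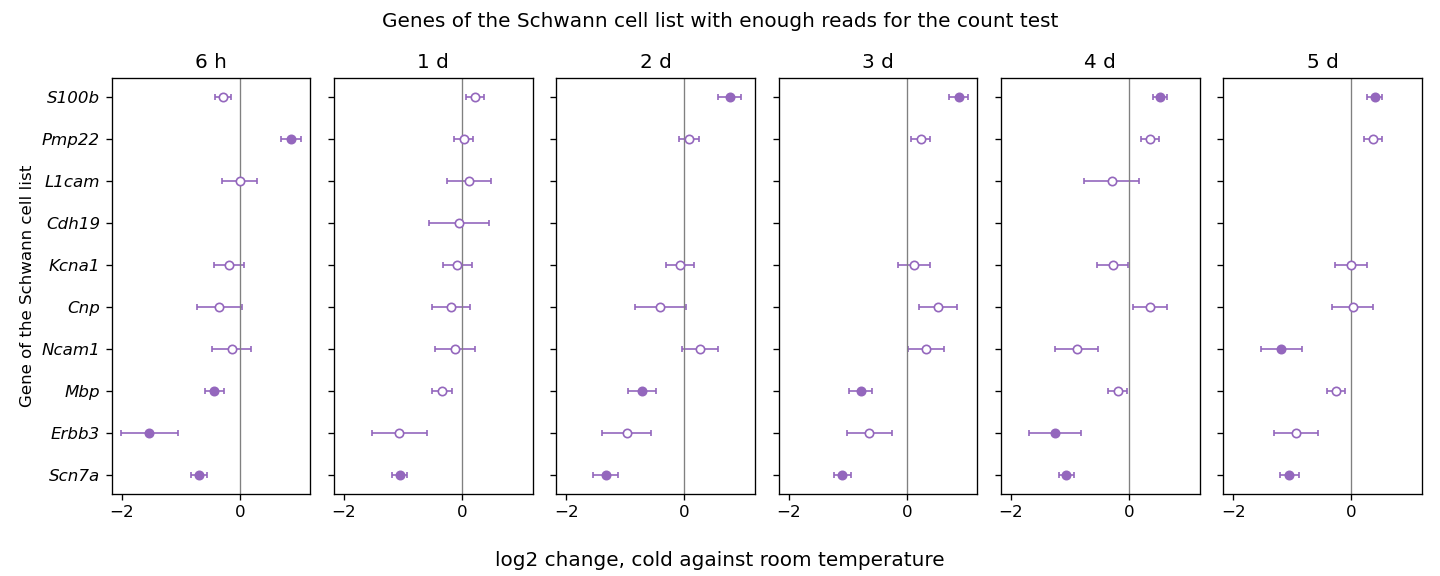
log2 change ± SE from room temperature (x axes) of genes of the Schwann cell list that could be tested (most of them, y axis), in a panel for each time at 6 °C. Filled points have an adjusted p below 0.05, and among them S100b lies to the right of 0 from 2 to 5 days and Scn7a to the left of 0 in all 6 panels.

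Summed without S100b, the other 25 genes had 100.3 ± 14 CPM in controls, 72.2 ± 6.11 after 2 days, 83.8 ± 14.1 after 3 days and 84.7 ± 5.45 after 5 days. The ratio of S100b to this sum, which does not depend on the scaling of the libraries and was chosen after the values were seen, was 1.55 ± 0.36 in controls and 1.21 ± 0.25 after 6 hours. It was 2.09 ± 0.40 on day 1, 3.67 ± 1.41 on day 2, 3.37 ± 0.92 on day 3, 2.51 ± 0.23 on day 4 and 2.37 ± 0.30 on day 5. From 2 to 4 days every mouse was above the highest control, at 2.09. No test is given, since the ratio was built from values already seen. Pmp22, which other cells also express, was the largest part of the sum. Scn7a, whose fall is given above, is also in the sum, and much of the fall of the sum after 5 days lay in this gene. The ratio does not tell a rise of S100b from a fall of such genes.

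**Figure D5:**
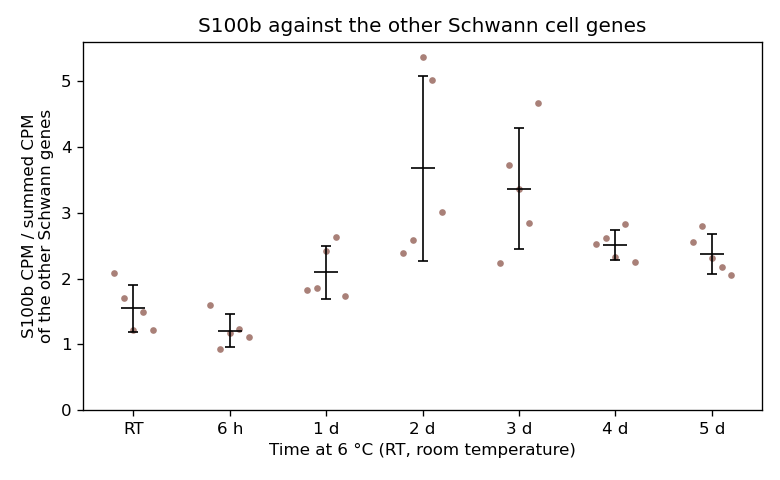
Ratio of S100b CPM to the summed CPM of the other 25 Schwann cell genes (y axis) in each of 5 mice per group (points), with the mean (long bar) and SD (error bars), at room temperature (RT) and after each time at 6 °C. The ratio is 1.22 to 2.09 in controls and 2.23 to 5.37 in the mice of 2 and 3 days.

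A second Schwann list held the first 30 genes of the Schwann cluster in the single-cell data of the same study, and was thus drawn from the same tissue and conditions. Of its 17 genes tested after 5 days, 3 were called higher and 2 lower, smaller shares than the 20.2% and 18.6% of all genes, and the median log2 change was -0.075. Those higher were S100b, Mal and Aspa. Mal, which encodes a myelin membrane protein, had 1.44 ± 0.62 CPM in controls and 9.51 ± 2.58 after 5 days (log2 change 2.68 ± 0.30, edgeR adjusted p = 1.9e-06). Aspa, which encodes aspartoacylase, had 60.5 ± 10.3 and 92.4 ± 4.88 CPM in these groups (0.61 ± 0.11, adjusted p = 4.3e-04). Kcna2, a potassium channel gene, and Ank3, which encodes ankyrin-G, were lower (-1.20 ± 0.35 and -0.62 ± 0.19, adjusted p = 0.012 and 0.013).

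Of the 7 other S100 genes tested, 4 were called higher after 2, 3 and 4 days each and 3 after 5 days, where between 16.4% and 20.2% of all genes were called higher. With library size alone these counts were 1 after 2 days, 3 after 3 days and 2 after 4 and 5 days each. S100a4, which is expressed by macrophages and fibroblasts, had 4.95 ± 1.81 CPM in controls and 21.6 ± 13.5 after 3 days (log2 change 2.15 ± 0.42, edgeR adjusted p = 8.3e-04). S100a11 had 70.1 ± 23.1 and 150 ± 17.6 CPM in controls and after 5 days (1.09 ± 0.18, adjusted p = 1.2e-04).

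The cell bodies of the sympathetic axons lie in ganglia outside the tissue, and the RNA of these neurons was near 0. Of 24 axon and neuron genes, 18 averaged below 1 read per library. Dbh and Chrna3 had no read in any library and Th, the rate-limiting enzyme of noradrenaline synthesis, had a single read in all 35. Only Stmn2, a gene of growing axons, averaged 10 reads or more, with 1.98 ± 0.39 CPM in controls, 3.47 ± 1.53 after 2 days and 2.15 ± 1.11 after 5 days. Its log2 change after 2 days was 0.80 ± 0.34 (edgeR adjusted p = 0.083). The summed list had a median of 5.60 CPM in controls and 3.04 after 5 days. Axon density cannot be read from these libraries.

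Among other growth factors acting on nerve (18 genes), 4 of the 11 tested were called higher and 4 lower after 5 days, beside 20.2% and 18.6% of all genes. Bmp8b, a secreted factor of brown adipocytes, had 2 reads in all 5 controls and a mean of 27.8 ± 13.7 CPM after 5 days. Manf, a neurotrophic factor of the endoplasmic reticulum, had 20.6 ± 5.96 CPM in controls and 55.0 ± 5.78 after 5 days (log2 change 1.42 ± 0.16, edgeR adjusted p = 1.8e-06). Erbb4, a neuregulin receptor, fell by 1.79 ± 0.34 on the log2 scale, and Cdnf, a relative of Manf, fell by 1.23 ± 0.35 (adjusted p = 5.0e-04 and 0.0097). Of 18 axon guidance genes tested after 5 days, 2 were called higher and 2 lower, smaller shares than the 20.2% and 18.6% of all genes. Plxnd1, a semaphorin receptor gene, and Unc5b, a netrin receptor gene, were higher (0.88 ± 0.15 and 0.83 ± 0.21), and the ephrin genes Efna1 and Efna5 were lower (-0.74 ± 0.25 and -0.52 ± 0.15). In the GDNF family (9 genes), Nrtn, which encodes neurturin, was lower after 1 day (-1.41 ± 0.26, adjusted p = 5.4e-04).

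The genes most like each member were found by Pearson r of log2 CPM over the 35 libraries, among 8889 genes with a mean of at least 20 counts. These values describe the libraries, which share their durations of cold. For Ntrk3 they were Paxx (r = 0.897), Tns1 (0.886) and Isoc1 (0.881), and with the mean of each duration removed r was 0.767, 0.741 and 0.482. Paxx had 48.7 ± 15.8 CPM in controls, 13.2 ± 3.85 after 1 day and 29.8 ± 10.9 after 5 days. For S100b they were Orm3 (0.869), Clybl (0.824) and Car14 (0.810). Orm3, an acute-phase protein gene, had 10.4 ± 5.48 CPM in controls and 73.3 ± 17.2 after 2 days. For Clstn3 they were Dgat1 (0.926), Ppil1 (0.897) and Cars2 (0.891). Dgat1, which encodes an enzyme of triglyceride synthesis, had 155.5 ± 25.2 CPM in controls, 452 ± 72.6 after 1 day and 217 ± 7.55 after 5 days. Among the members, r was -0.509 between Ntrk3 and Clstn3, -0.211 between Ntrk3 and S100b and -0.107 between S100b and Clstn3. With the mean of each duration removed, the sign of all 3 turned, to 0.259, 0.342 and 0.269.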

How the data were processed

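iBAT RNA of 35 mice was sequenced with the QuantSeq 3′ FWD kit. Per the paper's methods and the submitters' processing notes, reads were aligned with STAR 2.6.1d to GRCm38 and counted per gene with HTSeq 0.11.2, with the strand setting not given in the sources used here. The authors deposited raw counts per gene, without normalization, and all 35 columns were matched to mice by their labels. 267 identifiers had no gene symbol.

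Each duration was compared with room temperature in its own fit by edgeR 4.0.16 in R 4.3.3 (TMM, filterByExpr, quasi-likelihood test, Benjamini-Hochberg over all genes tested, threshold 0.05), and a linear change per day was fitted to the 25 mice of 1 to 5 days. Members below the filter were given exact permutation tests of log2 CPM (prior count 2). Groups come from the labels, and p-values measure the spread between mice. Alternatives were RLE size factors, library size alone, leaving out mitochondrial genes and Gm42418, no filter, DESeq2 1.42.0, all groups in a single fit, a replicate block, 5 days against 1 day, and leaving out each mouse. Tables and plots were made in Python 3.11.15 with matplotlib 3.10.9, scipy 1.17.1, pandas 2.3.3 and numpy 2.4.6. The test of any difference among the 5 durations and the S100b ratio were added after the data had been seen. On simulated data for 5 days against controls, with 10748 genes tested, edgeR recovered 163 of 200 genes changed by 1 on the log2 scale with 10 false calls. For the linear change, with 11318 tested, it recovered 182 of 200 changed by 0.25 per day with 8 false calls. The simulation gave all genes the same relative spread between mice and changed only genes with enough reads. These figures do not carry over to genes with a larger spread or with few reads, such as Ngfr, Bdnf and Sox10.

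The members and the gene lists were chosen with earlier results of these data known. Any gene of the neurotrophin, calsyntenin, Schwann and sympathetic lists could be named, and of other lists the 2 with the largest rise and the 2 with the largest fall among those called. Of the members, promoter windows in RefSeq (GRCm38.p6) were found for Bdnf, Clstn3, S100b and Ngfr. Gene positions come from GENCODE vM21 (GRCm38). Values of some listed genes are not reported here.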

Additional observations from a re-analysis of the deposited data

Results flagged for a closer look

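In 4 of 42 groups of 5 mice (6 genes in 7 groups), a mouse stood apart from its group by Dixon's criterion, which chance exceeds in about 1 in 20 groups. Ntrk3 was 30.2 CPM (163 reads) in replicate 5 of the 6-hour group, above the other 4 mice. Ngfr was 1.62 CPM (7 reads) in replicate 2 after 2 days, Bdnf was 0.870 CPM (4 reads) in replicate 3 of the controls, and Sox10 was 0.181 CPM (a single read) in replicate 1 after 4 days. A linear change from 1 to 5 days was called for Ntrk3, at 0.42 per day on the log2 scale, and for Clstn3, at -0.18 per day (edgeR adjusted p = 0.0047 and 1.9e-04). For Ntrk3, the test of any difference among these durations did not reach the threshold.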

How the results depend on the processing

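The number of members called here includes Ntrk3 and the 6-hour comparison, which the choice of genes used, so its steadiness is partly fixed in advance. It was within 1.5 times that of the main fits under every alternative except library size alone after 5 days. There only Ntrk3 was called, 1 instead of 3, since S100b and Clstn3 lost their calls. The loss of a single call out of 3 stays within 1.5 times, so this number does not show it. Clstn3 after 5 days lost its call in 7 of the 10 fits that left out a mouse. Clstn3 also lost its call after 4 days with library size alone (edgeR adjusted p = 0.098). Against controls Ntrk3 kept its direction under every alternative, which its choice largely fixed in advance. Its linear change was 0.39 to 0.48 per day when a mouse was left out (adjusted p = 9.3e-04 to 0.015), and the test of any difference among the 5 durations gave an adjusted p of 0.063. The linear change of S100b, which was never called, ranged from -0.024 to 0.024 per day when a mouse was left out, and its sign differed in 6 of those 25 fits. Clstn3 after 3 days was called only without replicate 1 of that group (0.43, adjusted p = 0.030). Replicate numbers did not pair the mice: same-numbered mice from different groups had a mean correlation of -0.011, and 19 of 105 pairs were over 0.1. With the replicate block, the calls of S100b and Clstn3 from 1 to 5 days were those reported (S100b after 5 days 0.40, adjusted p = 0.015). Without the filter on low counts, edgeR's adjusted p-values were far smaller than in the other fits and were not relied on. Ngfr, Sox10 and Bdnf are limited by depth.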
